A study of Mus musculus with 4 samples.

Results

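The Gimap genes (GTPases of the immunity-associated protein family) were followed in mouse bone marrow across 4 single-cell libraries, 1 per genotype. The members were all 8 genes whose symbol starts with Gimap among the 31053 genes counted, namely Gimap1, Gimap3, Gimap4, Gimap5, Gimap6, Gimap7, Gimap8 and Gimap9, and they were read in cells gated by marker genes. DKO mice lacked mDia1 (the actin-nucleating formin encoded by Diaph1) and miR146a and kept IL6. TKO mice lacked mDia1, miR146a and IL6. IL-6 KO mice lacked IL6 only and kept mDia1 and miR146a. TWT mice kept all of them. All were C57/B6, aged 12 months, with constitutive deletions, and the marrow came from femur and tibia after red cells had been lysed. The sources used here do not state the number of mice behind each library. The values of a genotype are those of 1 library, so no test between genotypes was possible. Every interval below is a 95% interval that covers counting error only.

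Gimap proteins are small GTP-binding proteins of vertebrates that are best known from T cells, B cells and natural killer (NK) cells. Several of them sit on membranes of organelles such as lysosomes, the endoplasmic reticulum and mitochondria, and the family is known for its part in the survival of lymphocytes. Gimap5 is required for the survival of naive T cells in rats and mice, and its loss leads to lymphopenia. Gimap3 is the closest relative of Gimap5 and has been studied together with it in the survival of T cells. Gimap1 is required for the development and upkeep of mature T and B cells in mice, Gimap6 binds the autophagy protein Gabarapl2, and Gimap8 differs from the rest in carrying several GTP-binding domains in 1 protein.

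The 8 genes lie side by side within 123618 bases of chromosome 6 (GRCm38, 48647234 to 48770851), in the order Gimap8, Gimap9, Gimap4, Gimap6, Gimap7, Gimap1, Gimap5 and Gimap3. Gimap8 (ENSMUSG00000064262) spans 48647234 to 48660875 on the plus strand at one end of the cluster, and Gimap3 (ENSMUSG00000039264) spans 48764464 to 48770851 on the minus strand at the other. Gimap6 (48701582 to 48708225) is the other gene on the minus strand. Gimap7, Gimap1 and Gimap5 overlap the annotated gene Gm28053 on the same strand, and Gimap1 also overlaps Gimap1os on the opposite strand. Gm28053 had 11, 3, 4 and 7 UMIs in the T cells of DKO, TKO, IL-6 KO and TWT, and reads that fall in both genes may have been lost from Gimap7, Gimap1 and Gimap5. Of all pairs of members, Gimap3 and Gimap5 were the only one to share stretches of 50 bases in the annotated transcripts (190 stretches, 7.52% of those of Gimap3 and 4.53% of those of Gimap5), so their counts are the least certain to be separate.

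The stretch of 250 bases in front of the annotated start is shown for Gimap8 and Gimap3, the genes with the lowest DKO level relative to TWT in T cells, and for Gimap5, the nearest relative of Gimap3 (RefSeq, GRCm38.p6; chr6:48646984-48647233 plus strand, chr6:48770852-48771101 minus strand and chr6:48745947-48746196 plus strand). Capitals mark matches on either strand to GGAAGT (an Ets core), TGTGGT (Runx), GTAAACA (Fox) or GGGCGG (Sp and Klf).
Gimap8: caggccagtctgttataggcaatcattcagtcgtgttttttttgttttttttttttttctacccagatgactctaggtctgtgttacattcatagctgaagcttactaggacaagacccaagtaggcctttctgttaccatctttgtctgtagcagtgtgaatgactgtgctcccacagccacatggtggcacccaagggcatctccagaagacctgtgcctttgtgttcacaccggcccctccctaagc
Gimap3: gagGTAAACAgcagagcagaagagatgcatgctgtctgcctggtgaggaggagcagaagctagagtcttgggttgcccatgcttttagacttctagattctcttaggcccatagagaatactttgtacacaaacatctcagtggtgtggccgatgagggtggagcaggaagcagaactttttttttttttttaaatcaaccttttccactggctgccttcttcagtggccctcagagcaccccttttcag
Gimap5: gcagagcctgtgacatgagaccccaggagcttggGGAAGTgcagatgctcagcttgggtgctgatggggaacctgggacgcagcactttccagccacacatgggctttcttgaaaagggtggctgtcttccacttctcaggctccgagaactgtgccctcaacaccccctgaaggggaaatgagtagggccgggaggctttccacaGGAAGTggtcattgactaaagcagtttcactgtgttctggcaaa
None of these 4 motifs occurred in front of Gimap8, GTAAACA occurred once in front of Gimap3, and GGAAGT occurred at 2 places in front of Gimap5. Over the 8 members, GGAAGT was found for 2, TGTGGT for 3, GTAAACA for 1 and GGGCGG for 2. The same letters occurred in 19.7%, 14.1%, 3.17% and 32.7% of the 32851 promoter windows of mouse genes, and a match is a description of the letters only.

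A barcode was kept if 500 to 4000 genes were seen in it and if mitochondrial genes gave no more than 15% of its UMIs (unique molecular identifiers, 1 per captured mRNA molecule). There were 9627 in DKO, 7560 in TKO, 7476 in IL-6 KO and 6794 in TWT, from libraries of 61292684 to 85145074 UMIs. T cells carried at least 2 of Cd3d, Cd3e, Cd3g and Trac. They numbered 1065 in DKO, 227 in TKO, 330 in IL-6 KO and 373 in TWT. NK cells carried at least 2 of Ncr1, Klrb1c, Klre1, Klri2 and Eomes and were not T cells. They numbered 96, 36, 93 and 62 in the same order of libraries. B cells carried at least 2 of the marker genes of the B gate, which include Cd79a, Cd79b and Ms4a1, and were not plasma cells. They numbered 533 in DKO, 1547 in TKO, 1243 in IL-6 KO and 1195 in TWT. Levels are given as CPM (UMIs of a gene, scaled to a total of 1000000 UMIs in the gate). The NK gate of DKO was unlike the others in some of its own gate genes, with Eomes, a transcription factor of NK cells, at 15.2 CPM in DKO, 355 CPM in TKO, 263 CPM in IL-6 KO and 315 CPM in TWT. Klri2 had 41.7 CPM in DKO, 269.9 CPM in TKO, 261 CPM in IL-6 KO and 272 CPM in TWT NK cells, while Ncr1 had 966.5 CPM in DKO, 836 CPM in TKO, 686 CPM in IL-6 KO and 733 CPM in TWT. The gate is called NK here by its rule only. Diaph1 had 11.8 CPM in DKO and 10.7 CPM in TKO T cells, against 203 CPM in IL-6 KO and 176 CPM in TWT T cells, low in both libraries labelled as lacking mDia1. Between 14 and 30 barcodes of kept cells were shared by any pair of libraries, and 0 to 3 of them lay in lymphocyte gates. Scrublet marked 6.29% of T cells in DKO, 3.97% in TKO, 2.12% in IL-6 KO and 5.63% in TWT as doublets, and these were kept unless stated.

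The Gimap genes were abundant in all 3 kinds of lymphocyte and scarce in the myeloid cells that made up most of the marrow. The 8 genes together had 2170 CPM in DKO, 2579 CPM in TKO, 2626 CPM in IL-6 KO and 2362 CPM in TWT T cells. In NK cells they had 3025 CPM in DKO, 2360 CPM in TKO, 2778 CPM in IL-6 KO and 2785 CPM in TWT. In mature B cells (B cells with none of the precursor genes Vpreb1, Vpreb3, Igll1, Dntt and Rag1, and at least 1 of Ms4a1, Ighd, Fcer2a and Cr2) the sums were 1491, 1450, 1487 and 1439 CPM in DKO, TKO, IL-6 KO and TWT. Neutrophils had 16.8 CPM in DKO, 19.4 CPM in TKO, 29.5 CPM in IL-6 KO and 22.0 CPM in TWT. After each cell was thinned to 2000 UMIs, at least 1 member was seen in 95.5% of T cells in DKO, 96.8% in TKO, 96.5% in IL-6 KO and 97.3% in TWT. The same share was 3.38%, 3.88%, 5.09% and 4.49% of neutrophils, the cells read here as background for shares of positive cells. Gimap9 alone made up 46.0% (IL-6 KO) to 67.1% (TKO) of the Gimap UMIs of neutrophils. The neutrophil share is therefore not a background level for each member alike.

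**Figure D1:**
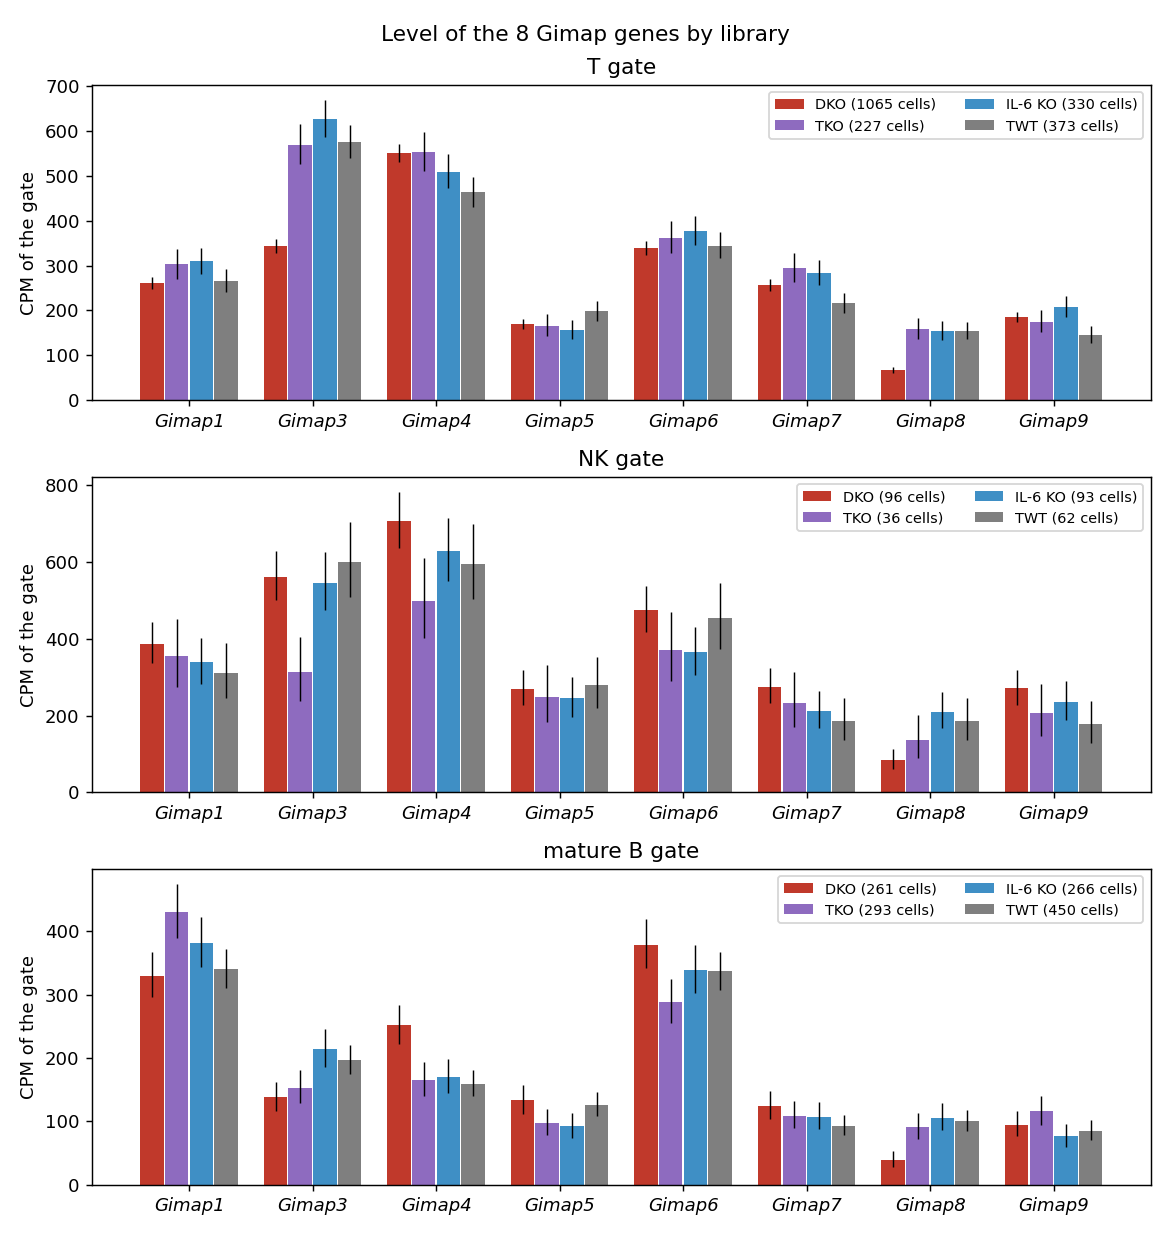
CPM of each Gimap gene in T, NK and mature B cells, with 1 bar per library and exact Poisson 95% intervals of the UMIs (counting error only). The Gimap8 bar of DKO is the lowest of the 4 libraries in each gate, at 66.5 CPM in T cells, 83.4 CPM in NK cells and 39.2 CPM in mature B cells.

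Gimap8 was the member that stood apart in the DKO library. In T cells it had 66.5 CPM in DKO (361 UMIs), 157.9 CPM in TKO (177 UMIs), 154.5 CPM in IL-6 KO (223 UMIs) and 154.6 CPM in TWT (250 UMIs). The 3 other libraries lay within a few CPM of each other, and DKO lay below the lower bound of each of their intervals. DKO over TWT gave 0.430 (interval 0.365 to 0.508) and DKO over TKO gave 0.421 (0.351 to 0.507). A gene was called lower or higher if it differed by at least 2-fold, reached 50 CPM in one of the libraries and had 30 or more UMIs in both together. By that rule 1 of the 8 members, Gimap8, was lower in DKO against TWT, beside 7.33% of the 3016 genes measured, and none was higher, beside 5.54%. Against TKO, Gimap8 was again the 1 member called lower, beside 5.61% of 2976 genes, and none was called higher, beside 3.16%. The T gates differed in NK genes: Ncr1 had 3.13 CPM in DKO, 48.2 CPM in TKO, 139 CPM in IL-6 KO and 57.5 CPM in TWT T cells, and Klre1 had 57.7, 245, 331 and 152 CPM. T cells with none of the 5 NK gate genes, a choice made after seeing the data, were 55.6% of T cells in DKO, 44.5% in TKO, 38.5% in IL-6 KO and 48.0% in TWT. In them Gimap8 had 72.7 CPM in DKO (63.1 to 83.4), 124 CPM in TKO (93.3 to 162), 125 CPM in IL-6 KO (96.5 to 159.9) and 140.5 CPM in TWT (114 to 171). DKO was again the lowest library, but the difference no longer reached 2-fold against TWT (log2 -0.94) or TKO (log2 -0.76), so both calls were lost. The call against TKO was also lost with gates that needed only 1 marker gene (log2 -0.69). No member was called between TKO and TWT, where 1.47% of all genes were, or between IL-6 KO and TWT, where 2.01% were.

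The share of T cells in which Gimap8 was seen moved with its level. It was 13.3% in DKO (11.2 to 15.6%), 27.3% in TKO, 27.0% in IL-6 KO and 27.8% in TWT, with each cell thinned to 2000 UMIs. In neutrophils the same share was 0.112% in DKO, 0.0513% in TKO, 0.118% in IL-6 KO and 0.0869% in TWT, far below the T cells of every library. Without thinning, Gimap8 was seen in 26.1% of T cells in DKO, 49.3% in TKO, 45.5% in IL-6 KO and 44.2% in TWT. The median depth was then 4018 UMIs in DKO, 4298 in TKO, 4065 in IL-6 KO and 3919 in TWT T cells, against 8866.5, 5348, 5256 and 5090 UMIs in the neutrophils of the same libraries. Cells too shallow to thin were left out, which kept 978 of 1065 T cells in DKO, 216 of 227 in TKO, 315 of 330 in IL-6 KO and 338 of 373 in TWT.

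Gimap8 was low in DKO NK cells and mature B cells as well. In NK cells it had 83.4 CPM in DKO (44 UMIs), 138 CPM in TKO (26 UMIs), 210 CPM in IL-6 KO (79 UMIs) and 185 CPM in TWT (47 UMIs). DKO over TWT gave 0.450 (0.292 to 0.694), and Gimap8 was the 1 member called lower, beside 13.7% of 3248 genes, while none was called higher, beside 9.67%. Against TKO the ratio was 0.606 (0.365 to 1.03), an interval that includes 1, and no member was called in either direction, beside 10.1% of 3125 genes lower and 6.62% higher. The NK call against TWT held under 6 of 11 alternatives of processing, with log2 ratios of -1.18 to -0.57. The NK gate of DKO stood apart in other genes too, with Il7r at 447 CPM in DKO and 138 CPM in TWT and Gzmb at 1203 CPM in DKO and 98.5 CPM in TWT. The 6 NK genes not used by the gate summed to 6703 CPM in DKO, 12080 CPM in TKO, 8642 CPM in IL-6 KO and 8242 CPM in TWT, with none at 0. Monocytes had 3541, 3241, 3049 and 3076 CPM of the same genes, so the list is not particular to NK cells. In mature B cells Gimap8 had 39.2 CPM in DKO (40 UMIs), 90.8 CPM in TKO (84 UMIs), 106 CPM in IL-6 KO (100 UMIs) and 100.1 CPM in TWT (143 UMIs). The ratio was 0.391 (0.269 to 0.559) to TWT and 0.432 (0.289 to 0.636) to TKO. Gimap8 was the 1 member called lower in both comparisons, beside 10.6% of 2994 genes against TWT and 10.2% of 3017 genes against TKO. None was called higher, beside 3.61% and 3.61%. Both mature B calls held under 10 of 11 alternatives. In NK cells, no member was called between TKO and TWT or between IL-6 KO and TWT, where 7.93% and 3.19% of genes were.

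The background of these calls was wide in NK and mature B cells, and other genes were lower in DKO throughout. Of 2162 genes measured in T, NK and mature B cells in both DKO comparisons, 8 (0.37%) were called lower in all of them and 17 (0.786%) higher. The 8 were Nfatc3, Nup210, Lars2, Ddx17, Arid1a, Pum2, Tle3 and Kat6a, and the 17 included Saa3, Apoe and Cd14. No Gimap gene was among them, since Gimap8 missed the 2-fold limit in NK cells against TKO. Malat1, a nuclear RNA, was also lower in DKO in each gate, with 8357 CPM in DKO, 9905 CPM in TKO, 13070 CPM in IL-6 KO and 14080 CPM in TWT T cells, with 7173, 10620, 13970 and 14580 CPM in the NK cells and with 11490, 13540, 17160 and 18320 CPM in the mature B cells of the same libraries. The part of RNA quality in the Gimap8 result was not tested.

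**Figure D2:**
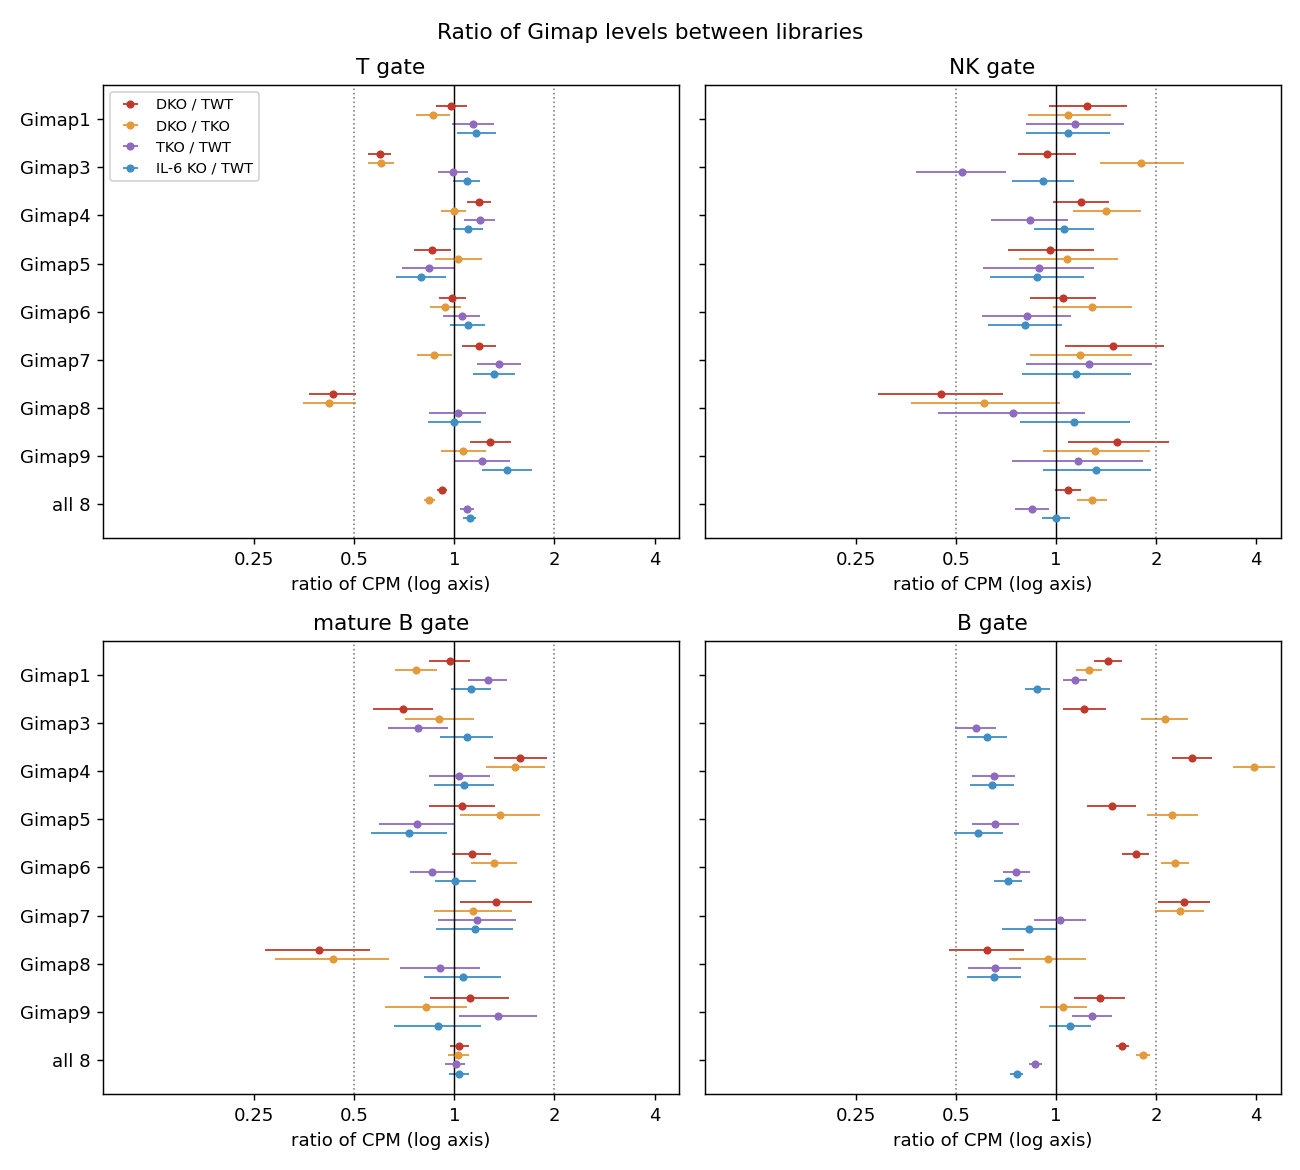
Ratio of CPM between libraries for each Gimap gene and for the 8 together, on a log axis, with exact conditional 95% intervals. Dotted lines mark 2-fold. Both DKO ratios of Gimap8 lie between 0.391 and 0.606 in T, NK and mature B cells, and the whole B gate has DKO ratios above 2 for Gimap4 and Gimap7.

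Set against its own family, Gimap8 was low in DKO in the T, NK and mature B gates. The NK gate of DKO was unlike the others in Eomes and Klri2, so its cells may not be of the same kind. It made up 3.07% of the UMIs of the 8 genes in DKO T cells (2.76 to 3.39%), 6.13% in TKO, 5.88% in IL-6 KO and 6.55% in TWT T cells. In NK cells its share was 2.76% in DKO, 5.83% in TKO, 7.57% in IL-6 KO and 6.65% in TWT. For mature B cells it was 2.63% in DKO, 6.26% in TKO, 7.13% in IL-6 KO and 6.96% in TWT. This measure does not depend on the total UMIs of the gate. In each of these gates the upper bound in DKO (3.68% or less) lay below the lower bound in the other libraries (3.84% or more).

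**Figure D3:**
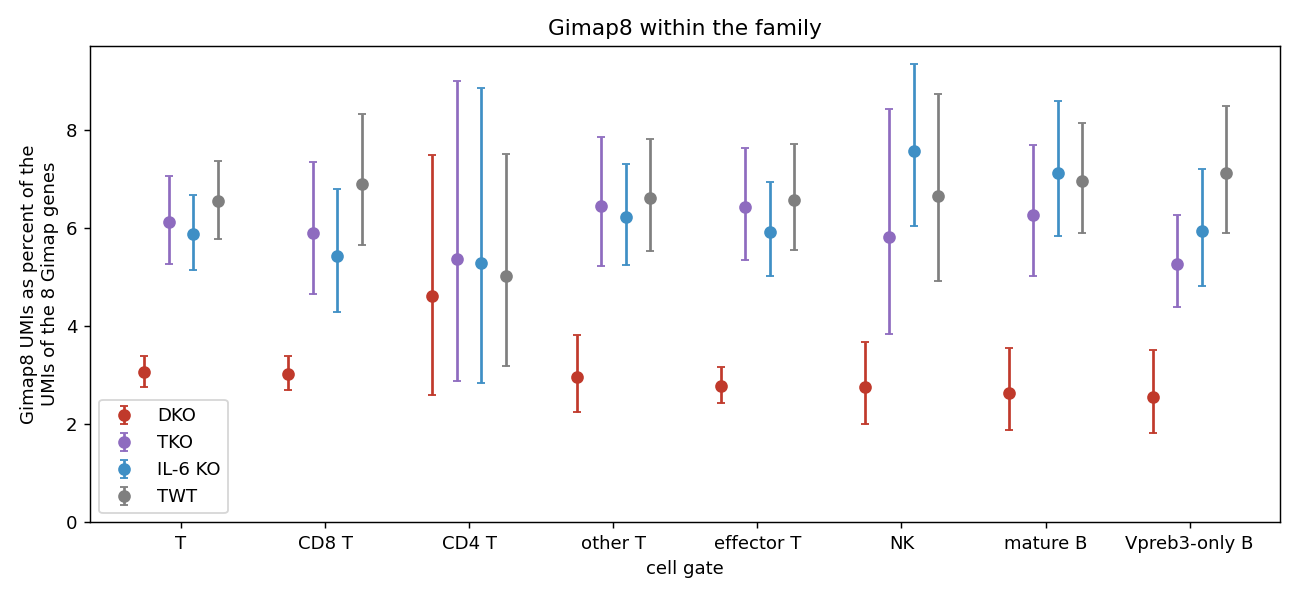
Gimap8 UMIs as a percent of the UMIs of the 8 Gimap genes in lymphocyte gates, with 1 point per library and exact Clopper-Pearson 95% intervals. DKO lies at 2.56% to 4.62% across the 8 gates shown and the other libraries at 5.03% to 7.57%, with CD4 T cells, where the intervals overlap, as the widest. The 2.56% is that of B cells with Vpreb3 only. There the Gimap8 CPM of DKO was close to that of TKO, and the sum of the 8 genes was highest in DKO.

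The makeup of the T cells differed between libraries, so the level was also read within subsets. CD8 T cells (Cd8a or Cd8b1 but no Cd4) were 74.9% of T cells in DKO, 41.4% in TKO, 35.5% in IL-6 KO and 35.1% in TWT. Within them Gimap8 had 67.0 CPM in DKO, 131.5 CPM in TKO, 124.0 CPM in IL-6 KO and 154.5 CPM in TWT, so DKO had 0.433 times the level of TWT (0.344 to 0.549) and 0.509 times that of TKO (0.393 to 0.668). Among T cells with Ccl5 or Nkg7 and few naive genes, which were 69.9% of T cells in DKO and 53.1% in TWT, Gimap8 had 67.0 CPM in DKO, 176.9 CPM in TKO, 178.6 CPM in IL-6 KO and 166.2 CPM in TWT. T cells that carried neither or both of the coreceptors had 60.7 CPM in DKO, 186.8 CPM in TKO, 180.5 CPM in IL-6 KO and 163.8 CPM in TWT. Each of these subsets repeated the low level of DKO, although the CD8 ratio of 0.509 to TKO fell short of a call. Cells with NK gate genes were not left out of these subsets. Among all T cells with none of those genes, Gimap8 was still lowest in DKO but was no longer called against TWT or TKO. It had 72.7 CPM in DKO, 124 CPM in TKO, 125 CPM in IL-6 KO and 140.5 CPM in TWT there. The part of cells with NK genes in the subset levels was not tested. CD4 T cells were few, and the 15 UMIs of Gimap8 in 38 DKO cells against 22 in 50 TWT cells gave a ratio of 0.739 (0.357 to 1.49), so a difference was not detectable at this depth. T cells gated as naive numbered only 10 in DKO, 11 in TKO, 16 in IL-6 KO and 14 in TWT and held 4 to 6 Gimap8 UMIs per library. In them the 8 genes summed to 829.5 CPM in DKO (633 to 1068) and 1755 CPM in TWT (1418 to 2148). TKO had 2109 CPM and IL-6 KO 1648 CPM. These sums rest on 60 UMIs in DKO, 84 in TKO, 94 in IL-6 KO and 94 in TWT.

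Gimap3 was the other member with a low level in DKO T cells. Over the whole T gate it did not reach the limit of 2-fold. It had 342.5 CPM in DKO, 569 CPM in TKO, 626 CPM in IL-6 KO and 575 CPM in TWT, with ratios of 0.596 (0.550 to 0.645) to TWT and 0.602 (0.550 to 0.659) to TKO. The share of T cells with a Gimap3 UMI was 55.0% in DKO, 65.7% in TKO, 67.0% in IL-6 KO and 66.9% in TWT. In CD8 T cells DKO had 0.684 times the TWT level (0.607 to 0.773). In CD4 T cells Gimap3 had 288 CPM in DKO (50 UMIs), 752 CPM in TKO, 617 CPM in IL-6 KO and 595 CPM in TWT (112 UMIs), DKO over TWT giving 0.484 (0.340 to 0.682). Gimap3 was thus the 1 of 8 members called lower there against TWT, beside 180 of 1707 genes. None was called higher, beside 214. Against TKO, Gimap3 and Gimap9 were called lower of 7 members measured, beside 102 of 1163 genes, and none higher, beside 165. T cells with Foxp3 had Gimap3 at 289 CPM in DKO (33 UMIs in 30 cells) and 878 CPM in TWT (84 UMIs in 33 cells). They had 1149 CPM in TKO (22 cells) and 797.5 CPM in IL-6 KO (15 cells). NK cells did not share the pattern. There Gimap3 had 561 CPM in DKO, 312 CPM in TKO, 545 CPM in IL-6 KO and 599 CPM in TWT, so TKO was the low library. In mature B cells it had 138 CPM in DKO and 153 CPM in TKO, against 214 CPM in IL-6 KO and 197 CPM in TWT.

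Gimap5, the survival GTPase nearest to Gimap3, had 170 CPM in DKO, 166 CPM in TKO, 157 CPM in IL-6 KO and 198.5 CPM in TWT T cells, DKO over TWT giving 0.859 (0.755 to 0.978) and DKO over TKO 1.03 (0.876 to 1.21). It therefore had no such difference as Gimap3 in T cells. Gimap5 in mature B cells stood at 133 CPM in DKO, 97.2 CPM in TKO, 92.2 CPM in IL-6 KO and 126 CPM in TWT.

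Gimap4, which acts in the death of T cells in mice, went the other way from Gimap8 in B cells. In mature B cells it had 252 CPM in DKO, 165 CPM in TKO, 171 CPM in IL-6 KO and 160 CPM in TWT, a ratio of 1.58 (1.31 to 1.89) to TWT and of 1.52 (1.24 to 1.87) to TKO, inside the 2-fold limit. DKO was the single high library. In T cells Gimap4 had 549 CPM in DKO, 552 CPM in TKO, 509 CPM in IL-6 KO and 463 CPM in TWT, and its ratio of DKO to TKO was 0.995 (0.912 to 1.09).

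Gimap1, the GTPase needed by mature T and B cells, kept close levels in T cells, with 261 CPM in DKO, 302.5 CPM in TKO, 310 CPM in IL-6 KO and 266.5 CPM in TWT. Gimap6, the partner of Gabarapl2, had 339 CPM in DKO, 361 CPM in TKO, 377 CPM in IL-6 KO and 344 CPM in TWT T cells, DKO over TWT giving 0.987 (0.897 to 1.09). Gimap7, which can stimulate the GTP hydrolysis of relatives in biochemical work on human proteins, had 256 CPM in DKO, 294 CPM in TKO, 284 CPM in IL-6 KO and 216 CPM in TWT. Gimap9 had 185.5 CPM in DKO, 175 CPM in TKO, 208 CPM in IL-6 KO and 145 CPM in TWT. For Gimap7 and Gimap9 TWT was the lowest library, and the 3 libraries with a deletion lay above it. The median log2 ratio of the 8 members between DKO and TWT T cells was -0.03, beside 0.02 for all genes measured.

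Most T cells held several members at once. With cells thinned to 2000 UMIs, the median number of the 8 genes seen per T cell was 3 in DKO, 4 in TKO, 4 in IL-6 KO and 3 in TWT. At least 3 members were seen in 71.2% of T cells in DKO, 75.5% in TKO, 69.2% in IL-6 KO and 72.5% in TWT. NK cells had a median of 4.5 in DKO and 4 in each of the other libraries. Mature B cells had 2.5 in DKO, 2 in TKO, 3 in IL-6 KO and 2 in TWT, and the median of neutrophils was 0 in every library. The number of members seen per T cell thus differed little between genotypes while the level of Gimap8 did.

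**Figure D4:**
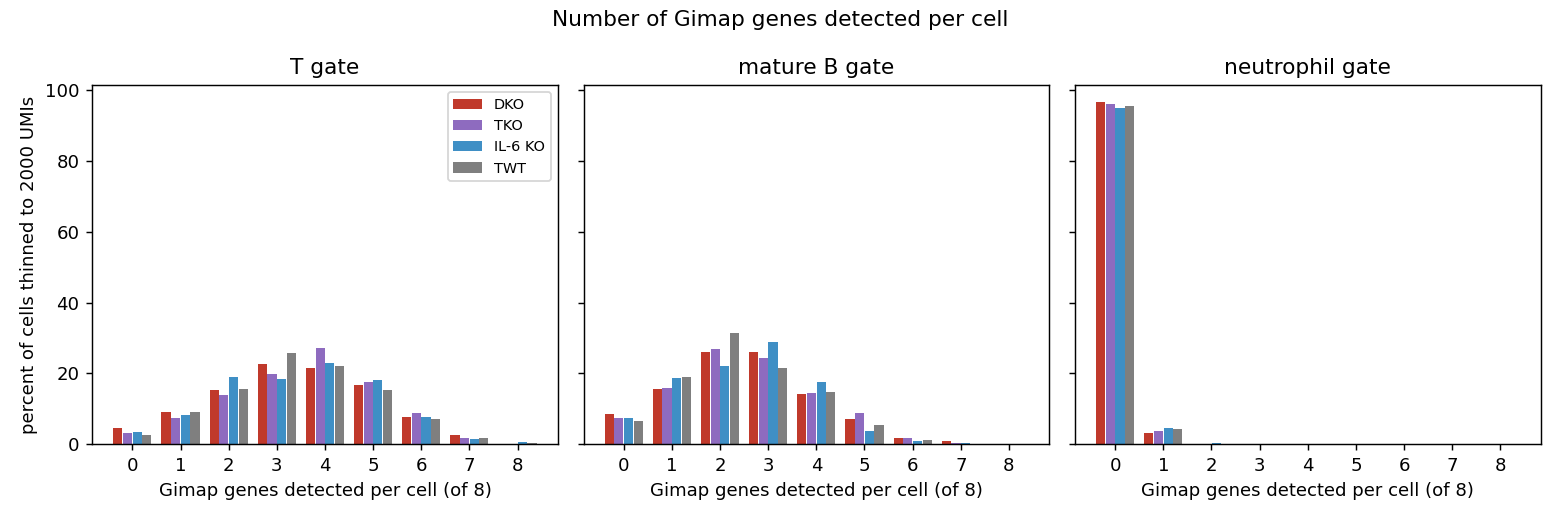
Percent of cells by the number of Gimap genes seen per cell, of 8, in T cells, mature B cells and neutrophils thinned to 2000 UMIs, with 1 bar per library. T cells peak at 3 to 4 members in each library, and at least 94.9% of neutrophils have none.

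The whole B gate held different stages of B cell in the 4 libraries, and the family stood highest in DKO there. The 8 genes summed to 1470 CPM in DKO, 805 CPM in TKO, 708 CPM in IL-6 KO and 928 CPM in TWT, DKO over TWT giving 1.58 (1.51 to 1.66). Gimap4 had 230.8 CPM in DKO, 58.5 CPM in TKO, 57.7 CPM in IL-6 KO and 90.1 CPM in TWT. Gimap7 had 127 CPM in DKO, 54.0 CPM in TKO, 43.7 CPM in IL-6 KO and 52.6 CPM in TWT. These 2 members were called higher in DKO against TWT, beside 4.02% of 3183 genes, and none lower, beside 13.8%. Against TKO 5 members (Gimap3, Gimap4, Gimap5, Gimap6 and Gimap7) of the 7 that were measured were called higher, beside 5.44% of 3271 genes, and none lower, beside 16.1%. No member was called between TKO and TWT, beside 0.851%, or between IL-6 KO and TWT, beside 2.22%. The DKO gate held few early cells: only 2 DKO B cells carried any of Vpreb1, Igll1, Dntt or Rag1, against 445 in TKO, 441 in IL-6 KO and 222 in TWT. Vpreb3 had 244 CPM in DKO, 2407 CPM in TKO, 2385 CPM in IL-6 KO and 1296 CPM in TWT B cells, and Igll1 had 0 UMIs in DKO. Weighting the B cells of each library by the TWT mix of stages left 3 members called higher against TKO, and gates that needed only 1 marker gene left 0 in either comparison. Under those wider gates the summed level also turned direction, to log2 -0.69 for DKO over TWT and -0.50 for DKO over TKO. Gimap8 was the one member whose ratio of DKO to TWT was below 1, at 0.621 (0.477 to 0.801), with 38.4 CPM in DKO, 40.5 CPM in TKO, 40.2 CPM in IL-6 KO and 61.8 CPM in TWT.

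The level of the family was higher at each later stage of the B lineage in TKO, IL-6 KO and TWT, and the members differed in this. In TWT, cells with Vpreb1, Igll1, Dntt or Rag1 had 342 CPM over the 8 genes, cells with Vpreb3 only had 938 CPM and mature B cells had 1439 CPM. In TKO the same stages had 390, 872 and 1450 CPM, and in IL-6 KO 306, 875 and 1487 CPM. Gimap1 was present from the first stage, with 174 CPM in TKO, 122.5 CPM in IL-6 KO and 128 CPM in TWT. Gimap9 had 71.5 CPM, 75.2 CPM and 63.9 CPM there, and 116, 76.3 and 85.4 CPM in mature B cells. Gimap3 had only 5.23 CPM in TKO, 6.50 CPM in IL-6 KO and 16.0 CPM in TWT at the first stage, against 153, 214 and 197 CPM in mature B cells. Gimap7 and Gimap8 had at most 8.53 CPM at the first stage in these 3 libraries. DKO cells with Vpreb3 only did not take the middle place. They had 1802 CPM over the 8 genes, above the 1491 CPM of DKO mature B cells. Their Gimap8 level was 46.2 CPM, against 46.0 CPM in TKO, 51.9 CPM in IL-6 KO and 66.8 CPM in TWT. Whether they were the same stage as in the other libraries was not tested. Vpreb3 had 502 UMIs in the DKO B gate, where 245 cells carried a precursor gene. It had 12967 UMIs in TKO (1243 such cells), 12396 in IL-6 KO (950) and 5595 in TWT (720).

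**Figure D5:**
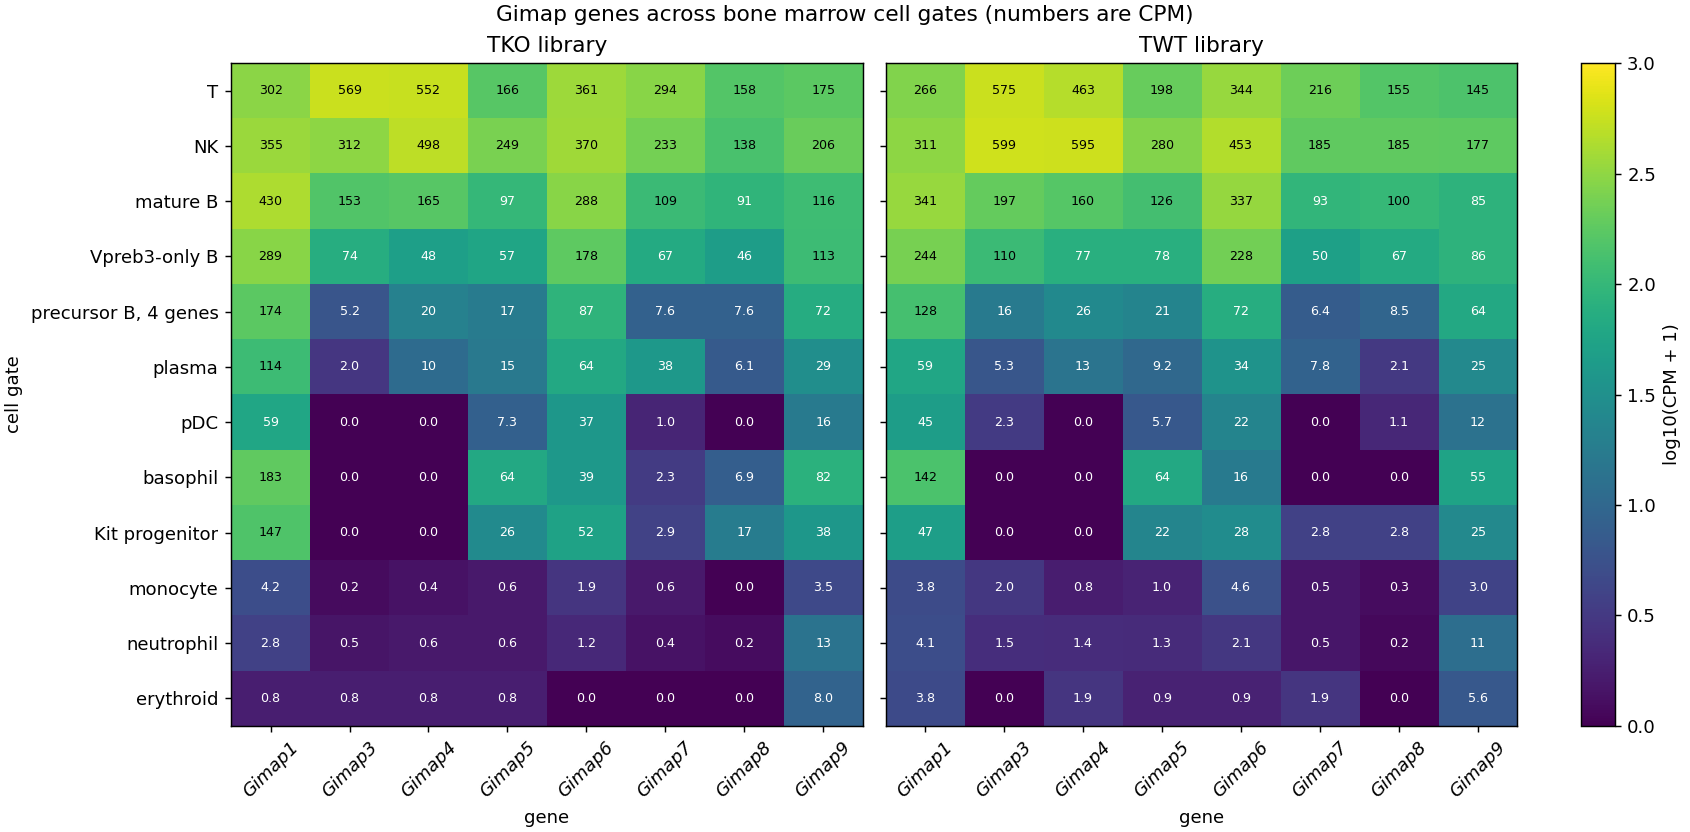
CPM of each Gimap gene (numbers) in 12 cell gates of the TKO and TWT libraries, colored by log10(CPM + 1). T, NK and mature B cells are high for all 8 genes, whereas basophils, plasmacytoid dendritic cells (pDC) and Kit progenitors have Gimap1, Gimap6 and Gimap9 with Gimap3 and Gimap4 at or near 0.

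Outside the T, NK and B gates the members were seen unevenly. Basophils (3 in DKO, 62 in TKO, 57 in IL-6 KO and 42 in TWT) had Gimap1 at 183 CPM in TKO, 155 CPM in IL-6 KO and 142 CPM in TWT. They had Gimap5 at 64.0 CPM in TKO, 59.2 CPM in IL-6 KO and 64.4 CPM in TWT, and Gimap4 had 0 UMIs in all 4 libraries. Plasmacytoid dendritic cells had Gimap1 at 59.2 CPM in TKO, 50.6 CPM in IL-6 KO and 45.5 CPM in TWT and Gimap6 at 37.4 CPM, 51.6 CPM and 21.6 CPM in the same libraries. Gimap3 was at 0 UMIs there in TKO and IL-6 KO and at 2 UMIs in TWT. Plasma cells had Gimap1 at 54.8 CPM in DKO, 114 CPM in TKO, 107 CPM in IL-6 KO and 58.6 CPM in TWT, and Gimap3 at 11.5, 2.02, 6.05 and 5.33 CPM. Gimap7 had 11.5, 38.4, 27.2 and 7.82 CPM in the plasma cells of the same libraries.

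Neutrophils had a small signal in which Gimap9 held the largest share. Gimap9 had 9.26 CPM in DKO, 12.98 CPM in TKO, 13.6 CPM in IL-6 KO and 11.0 CPM in TWT neutrophils, and it made up 55.2%, 67.1%, 46.0% and 49.9% of the UMIs of the family there. In T cells its share was 8.55% in DKO, 6.78% in TKO, 7.92% in IL-6 KO and 6.13% in TWT. It was found in neutrophils with Cxcr2 (11.6 CPM in DKO, 14.6 CPM in TKO, 14.3 CPM in IL-6 KO and 11.8 CPM in TWT) and in those with Camp and Ltf but no Cxcr2 (8.05, 10.3, 12.4 and 8.77 CPM). Monocytes had 3.01 CPM of Gimap9 in DKO, 3.54 CPM in TKO, 5.90 CPM in IL-6 KO and 3.04 CPM in TWT.

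The genes whose levels ran most like the summed Gimap level were genes of lymphocytes. Over 38 pairs of a gate and a library with at least 50 cells, in which gates share libraries and some cells, Ppp3cc (the gamma catalytic subunit of calcineurin) had a Pearson's r of 0.953 with the sum, Cers4 (a ceramide synthase) 0.949 and 4833403J16Rik 0.946, among 6255 genes. Il27ra (a cytokine receptor), Gpr174, H2-Q6, Cbx7, Cd2, Ikzf3 and Ptprcap followed with 0.931 to 0.912. Among the members themselves, Gimap4 and Gimap7 were the most alike (r = 0.988) and Gimap1 and Gimap3 the least (r = 0.791). These values describe the gates and carry no test.

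Genes of T cell state were read beside the family in DKO and TWT T cells. Among the naive T cell genes, Tcf7, Satb1 and Lef1 were called lower in DKO, beside 7.33% of all genes. The list did not move in 1 direction. Klf2 had 531 CPM in DKO and 382 CPM in TWT, and Il7r had 427 CPM in DKO and 383 CPM in TWT, both within 2-fold. Tcf7, a transcription factor of naive and memory cells, had 116 CPM in DKO and 355.5 CPM in TWT. Satb1, a chromatin organizer, had 125 CPM in DKO and 276 CPM in TWT, and Lef1, a relative of Tcf7, had 80.1 CPM in DKO and 171 CPM in TWT. Of the effector genes (11 of 17 measured), 2 were called higher and none lower, beside 5.54% and 7.33% of all genes (median 0.55 beside 0.02). Gzmb, a cytotoxic protease, had 437.5 CPM in DKO and 15.5 CPM in TWT, and Gzmk had 185 CPM in DKO and 73.6 CPM in TWT.

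Genes with a role near that of the Gimap proteins were read in the same T cells, beside 7.33% of all genes called lower and 5.54% called higher between DKO and TWT. None of the 5 measured genes of the Bcl-2 family (of 9 listed) was called between DKO and TWT (median 0.43). Bcl2a1b, which opposes cell death, had 104 CPM in DKO and 58.1 CPM in TWT, and Bax, which promotes it, had 186 CPM in DKO and 111 CPM in TWT. None of the 3 measured genes of the Atg8 and autophagy list (of 7 listed) was called (median 0.60). Gabarapl2 had 160 CPM in DKO and 92.8 CPM in TWT, and its relative Gabarap had 370 CPM in DKO and 244 CPM in TWT. Of 11 genes shared by lymphocytes none was called (median 0.36), and Cd48, an adhesion protein, had 219 CPM in DKO and 113 CPM in TWT, while Cd52 had 3563 CPM in DKO and 2340 CPM in TWT. Against TKO, Il7r of the naive T cell list (427 CPM in DKO and 196 CPM in TKO), Gzmb and Gzmk were called higher, beside 3.16% of all genes. Gzma, Tbx21 and Bcl2l11 were called lower, beside 5.61%.

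The protein-coding neighbors of the cluster were mostly at or near 0 in T cells. On the side of Gimap8, Zfp775 had 6.26 CPM in DKO and 8.04 CPM in TWT T cells, AI854703 had 2.40 CPM in DKO and 5.57 CPM in TWT (DKO over TWT 0.430, 0.170 to 1.14), and Repin1, Gm45021 and Gm44965 had at most 1.24 CPM in either, so whether they shared the level of Gimap8 was not detectable at this depth. On the side of Gimap3, Tmem176b had 77.4 CPM in DKO, 2.68 CPM in TKO, 65.8 CPM in IL-6 KO and 43.9 CPM in TWT T cells and Tmem176a had 73.3, 4.46, 78.3 and 34.01 CPM. Aoc1, 1600015I10Rik and Doxl2 had 0 UMIs. In NK cells Tmem176b reached 932 CPM in DKO, against 31.8 CPM in TKO, 82.5 CPM in IL-6 KO and 110 CPM in TWT.

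Other cells left a trace in the gates. The 8 neutrophil genes of the check list summed to 45620 CPM in DKO, 49990 CPM in TKO, 15830 CPM in IL-6 KO and 44090 CPM in TWT T cells, with none at 0. An upper estimate of free RNA (RNA from outside the cell) came from S100a8 and S100a9 relative to each whole library. It was 21.0% in DKO, 19.1% in TKO, 5.85% in IL-6 KO and 16.8% in TWT T cells. NK cells had 21.2, 7.485, 15.2 and 11.0%, and mature B cells 31.9, 25.3, 18.6 and 20.4%. DKO was the highest library in each of these gates. The 6 monocyte genes summed to 762 CPM in DKO, 291 CPM in TKO, 267 CPM in IL-6 KO and 182 CPM in TWT T cells, and the 6 B cell genes to 746, 38.4, 94.9 and 176 CPM, with 0, 2, 1 and 0 of them at 0 UMIs. The 6 NK genes not used by the NK gate summed to 3221 CPM in DKO, 3169 CPM in TKO, 3211 CPM in IL-6 KO and 2536 CPM in TWT T cells, with none at 0. This sum does not mark NK cells alone. Nkg7, Prf1 and Gzma are also in the effector T cell list, and Nkg7 had 1845 CPM in DKO and 986 CPM in TWT T cells. The sum was also 2174 to 2714 CPM in neutrophils and 3049 to 3541 CPM in monocytes. In NK cells the B cell genes summed to 2009 CPM in DKO, 360 CPM in TKO, 277 CPM in IL-6 KO and 134 CPM in TWT, and 3, 3, 1 and 2 of the 6 were at 0. The part of the monocyte and B cell genes in the DKO values was not tested. With barcodes over 5% UMIs of myeloid genes left out, the log2 ratio of Gimap8 between DKO and TWT T cells was -1.21, against -1.20 with all of them.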

How the data were processed

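Mouse bone marrow was profiled by droplet single-cell RNA sequencing with 3′ tags (1 library per genotype). The deposited matrices hold UMI counts per gene and barcode, which the authors made with Cell Ranger (3.0.2 in the matrix header) on mm10. No normalization had been applied. UMIs were summed per gate and library as CPM, which is not divided by gene length, so levels are compared between libraries and not between genes. Intervals were exact Poisson, Clopper-Pearson or conditional binomial (95%). Log2 ratios used a pseudocount of 1 CPM. With 1 library per genotype no test was run. The scripts were tested on simulated data.

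Named genes were all 8 members, the 2 to 4 measured genes of each list with the largest DKO to TWT difference in T cells, and the 5 nearest protein-coding genes on each side of the cluster. Other genes were named after their values were seen. Some genes of the gates and lists, and the summary of the naive T cell list, are not reported here. The members and lists were chosen with earlier results of these data known. Genes, gates and promoters were matched by symbol to GENCODE and RefSeq tables of GRCm38. Alternatives changed the markers needed per gate, the barcode filter, doublets (Scrublet), myeloid UMIs, scaling, thinning, free RNA, subset mix, NK genes in T cells and pseudocount. Python 3.11.15, numpy 2.4.6, scipy 1.17.1, pandas 2.3.3 and scanpy 1.11.5 were used.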

Additional observations from a re-analysis of the deposited data

Results flagged for a closer look

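The Gimap3 ratio of DKO to TWT was 0.5956 in T cells and 1.215 in the whole B gate, in opposite directions. Gimap5 differed in the same way, with 0.8585 in T cells and 1.469 in the whole B gate. That gate held different stages in DKO and TWT, with 2 and 222 cells carrying Vpreb1, Igll1, Dntt or Rag1. In mature B cells Gimap3 was lower in DKO (138 CPM) than in TWT (197 CPM), the direction seen in T cells. Gimap5 had 133 CPM in DKO and 126 CPM in TWT mature B cells. With 1 library per genotype these differences were not tested.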

How the results depend on the processing

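No paired analysis was possible because each genotype had 1 library. Gimap8 stayed at or beyond 2-fold lower in DKO T cells against TWT under 12 of 13 alternatives (log2 -1.27 to -0.94) and against TKO under 11 of 13 (-1.30 to -0.69). Leaving out T cells with any NK gate gene, chosen after seeing the data, left 0 members called lower against TWT and 0 against TKO. In mature B cells it did so under 10 of 11 against TWT (-1.78 to -0.83) and 10 of 11 against TKO (-1.48 to -0.97). In NK cells it did so under 6 of 11 against TWT (-1.18 to -0.57) and 1 of 11 against TKO (-1.19 to -0.30). The cause of these changes was not tested.

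With gates of at least 1 marker gene, the members called lower against TKO in T cells went to 0 (1 otherwise). In NK cells they were 0 lower and 2 higher against TWT and 1 lower against TKO. In B cells they were 1 lower and 0 higher against TWT, and 2 lower and 0 higher against TKO, with Gimap7 at log2 -0.0767 against TWT and Gimap3 at -0.2198 against TKO, both reversed, and the summed level at -0.69 against TWT and -0.50 against TKO, against 0.66 and 0.87 with the usual gates. Against TWT, NK cells had 0 members lower with at least 3 markers, when barcodes were filtered on 200 genes alone, with thinning to 2000 UMIs and with free RNA subtracted. Against TKO, NK cells had 1 member higher with at least 3 markers, with the 200-gene filter and with free RNA subtracted. Weighting B cells by the TWT mix left 3 members higher against TKO (5 otherwise), and leaving out the early precursors too, chosen after seeing the data, left 1. With the 200-gene filter, mature B cells had 0 lower and 1 higher against TWT and 0 lower against TKO.

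Depth limits the small gates: Gimap8 rests on 26 UMIs in 36 TKO NK cells and on 13 UMIs in 24 TKO CD4 T cells.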
